A study of Homo sapiens and Mus musculus with 33 samples.

Results

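The metallothionein genes examined here are the 6 genes MT1E, MT1F, MT1G, MT1M, MT1X and MT2A in HCT116 cells, out of 35805 genes in the RNA-seq table, and Mt1 and Mt2 in mouse colon epithelium, out of 25965 genes. Further genes of the family in the same data are described below. They were chosen by name. Every chromatin immunoprecipitation (ChIP-seq) peak inside a gene or within 2 kb of it was included, which gave 9 of 40266 peaks in HCT116 cells, 2 of 30338 H3K18cr peaks in colon and 2 of 27035 H3K4me3 peaks in colon. HCT116 is a human colon cancer line of epithelial origin. It was treated for 18 h with 5 µM MS275 (entinostat), an inhibitor of class I histone deacetylases, or with the same amount of its solvent DMSO. For each treatment 4 RNA-seq libraries, 3 H3K18cr libraries, 3 H3K18ac libraries and 1 input library were measured. H3K18cr and H3K18ac are the crotonylated and acetylated forms of lysine 18 of histone H3. The colon data came from untreated male C57BL/6 mice: 3 RNA-seq libraries from 3 mice, 2 H3K18cr libraries with 2 inputs, and 3 libraries of H3K4me3, a mark of promoters, with 1 input. The study pooled colons for the colon ChIP experiments. HCT116 cells are 1 line, and the labels do not say whether the ChIP libraries came from separate cultures, so p-values for the marks measure the spread between these libraries, which may be technical. The study's methods name fewer H3K18cr replicates for HCT116 cells than the labels do, and all labelled libraries were used.

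Metallothioneins are small proteins rich in cysteine that bind zinc and copper and, when these are present, cadmium. Zinc activates the transcription factor MTF1, which binds short DNA sequences called metal response elements in front of metallothionein genes and of SLC30A1, the gene of a zinc exporter. In the gut epithelium metallothioneins buffer zinc taken up from food, and their genes are also known to respond to glucocorticoids and oxidative stress.

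The 6 human genes lie together on chromosome 16 (GRCh38), from 56608199 to 56684196, a span of 76.0 kb. MT2A, MT1E, MT1M, MT1F and MT1X are read from the + strand and MT1G from the - strand. Their coding sequences are alike, so reads can fit several of them. The study's methods give a filter for uniquely mapped reads without naming a species. They describe RNA-seq mapping for mouse only, so how such reads were treated in HCT116 is not certain. The RefSeq promoter table used here matched 2 of the 6, MT2A and MT1X, so only these are shown. Both are genes whose RNA rose when replicate numbers were treated as pairs (below), but promoters of MT1E and MT1F were missing for comparison. Promoters of MT1B, MT1H and MT4, also found there, are not shown. The 250 bases before each annotated start are given. Capitals mark the core of the metal response element (TGCACNC or TGCGCNC, N being any base, searched on both strands). MT2A is chr16:56608334-56608583 and MT1X is chr16:56682220-56682469, both GRCh38.p14, + strand. These RefSeq starts lie inside the intervals that the deposited table gives for the genes.
MT2A: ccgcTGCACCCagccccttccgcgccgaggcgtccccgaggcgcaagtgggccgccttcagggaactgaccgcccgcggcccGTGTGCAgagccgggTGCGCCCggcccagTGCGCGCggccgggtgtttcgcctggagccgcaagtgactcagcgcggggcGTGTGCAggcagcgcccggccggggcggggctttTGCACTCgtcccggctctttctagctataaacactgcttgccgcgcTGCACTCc
MT1X: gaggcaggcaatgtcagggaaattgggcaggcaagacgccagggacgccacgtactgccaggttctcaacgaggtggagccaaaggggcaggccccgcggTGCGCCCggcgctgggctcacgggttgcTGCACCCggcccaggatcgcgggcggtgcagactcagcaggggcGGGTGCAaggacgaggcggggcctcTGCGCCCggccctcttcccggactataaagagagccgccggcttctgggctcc

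The MT2A sequence held 7 copies of the core, between 246 and 2 bases from the start, and the MT1X sequence held 4, between 150 and 47 bases from it. Of 35116 human promoters of the same length, 24.8% held at least 1 copy and 0.37% held at least 4. Each sequence also had a TATA box (TATAAA), beginning 29 bases before the start in MT2A and 30 in MT1X, and 10.7% of all promoters held at least one. Each held 2 GC boxes (GGGCGG), which 42.6% of all promoters held at least once, and 1 of those of MT1X overlapped a metal response element core. These letters describe the sequence and not binding. Both promoters lie inside the peaks described below, and their GC content was 73.2% in MT2A and 70.0% in MT1X.

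HCT116 cells used 4 of the 6 genes, and at very different levels. Compared per kilobase of exon, MT2A was the highest in DMSO at 466 ± 125 CPM per kb (counts scaled to library size, CPM, per kb of exon, SD, n = 4), followed by MT1E at 205 ± 56.0, MT1X at 15.7 ± 5.10 and MT1F at 2.27 ± 0.98. The ranges of neighbours in this order did not overlap in the 4 DMSO libraries: MT2A lay at 353 or above, MT1E between 150 and 254, MT1X between 10.1 and 22.1, and MT1F at 3.19 or below. The summed exons of MT2A (914 bp) and MT1X (1727 bp) cover their whole annotated intervals, unlike those of MT1E and MT1F, so the lengths used are not alike. MT2A was the gene of rank 333 by CPM among 24974 detected genes and MT1E that of rank 806. In each of the 8 libraries MT2A and MT1E together made up between 93.9% and 96.1% of the reads on the 6 genes. The 6 genes took between 0.0524% and 0.109% of all counted reads.

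MT1M and MT1G were close to silent. MT1M had 28 reads in all 8 libraries together, of which 13 were in DMSO replicate 2, 13 in MS275 replicate 1 and 2 in MS275 replicate 3. MT1G had 3 reads, all in MS275 replicate 3. The other 5 libraries for MT1M and 7 for MT1G had 0 reads, which allows up to 3 in each. Neither gene passed the filter on low counts, so neither was tested and no fold is given.

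MT2A RNA was higher with MS275 in each of the 4 same-numbered pairs of libraries. Its values were 459.5, 348, 571 and 323 CPM in DMSO replicates 1 to 4 and 531, 476, 813 and 408 CPM in MS275 replicates 1 to 4. The treatments overlapped, since DMSO replicate 3 was above 3 of the 4 MS275 libraries. The means were 426 ± 114 CPM in DMSO and 557 ± 178 CPM in MS275 (SD, n = 4), a ratio of 1.31.

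MT1X, another zinc-binding member of the family, was also higher in 4 of 4 pairs. It had 29.2, 23.8, 38.2 and 17.4 CPM in DMSO and 44.6, 33.9, 62.0 and 27.9 CPM in MS275. Here too the treatments overlapped, with DMSO replicate 3 above MS275 replicates 2 and 4. The means were 27.1 ± 8.81 and 42.1 ± 15.0 CPM, a ratio of 1.55. Of all 14961 genes tested, 19.2% were higher in 4 of 4 pairs.

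MT1E and MT1F were each higher with MS275 in 3 of 4 pairs and lower in the other. MT1E measured 266, 173, 267 and 157 CPM in DMSO and 225, 202, 353 and 169 CPM in MS275, and it was replicate 1 in which it was lower with MS275. MT1F, the lowest of the 4 genes, measured 2.90, 5.91, 5.61 and 2.38 CPM in DMSO and 4.26, 4.50, 7.62 and 5.33 CPM in MS275, and it was replicate 2 in which it was lower. Both genes overlapped between treatments.

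**Figure D1:**
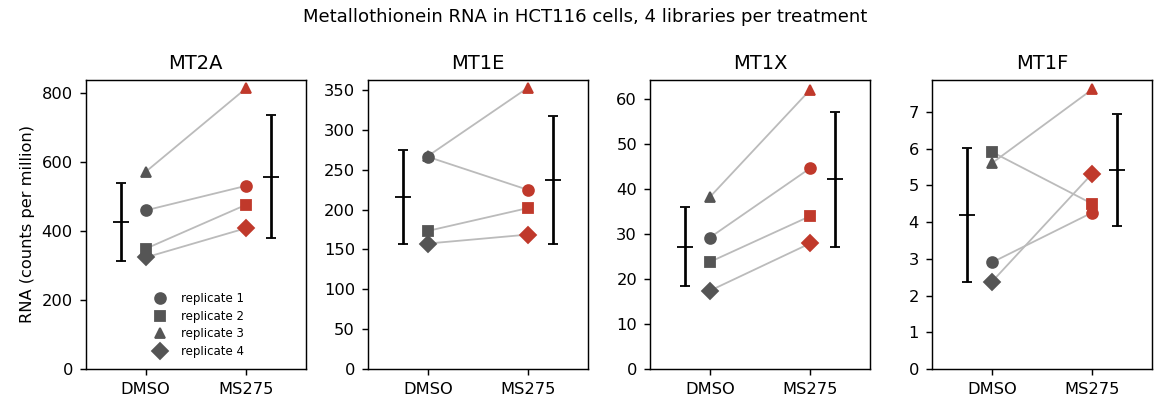
RNA of the 4 expressed metallothionein genes in HCT116 cells in CPM (linear axes from 0, 1 scale per gene). Each symbol is 1 library, grey lines join libraries of the same replicate number, and black bars are mean ± SD (n = 4). MT2A and MT1X are higher with MS275 in each of 4 pairs, and MT1E and MT1F in 3 of 4, while the 2 treatments overlap for every gene.

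The outcome of the test depended on whether the pairs were used. In the edgeR quasi-likelihood test without pairing, 0 of the 4 genes tested were called at an adjusted p under 0.05. None had an unadjusted p under 0.05 (0 of 4; DESeq2 called 0, with 1 under that unadjusted limit), and the background was 0.00668% of genes called. The log2 changes were 0.63 ± 0.30 (SE) for MT1X (adjusted p = 0.763), 0.39 ± 0.25 for MT2A (0.873), 0.37 ± 0.38 for MT1F (0.935) and 0.13 ± 0.26 for MT1E (0.977). Each of these was lowest without MS275 replicate 3, at 0.39 for MT1X, 0.15 for MT2A, 0.16 for MT1F and -0.12 for MT1E, and without DMSO replicate 3 MT1X was at 0.84 and MT2A at 0.56. With the replicate number as a block, MT1X rose by 0.63 ± 0.10 (adjusted p = 0.00214) and MT2A by 0.38 ± 0.06 (adjusted p = 0.00251), while MT1F, at 0.44 ± 0.31 (adjusted p = 0.384), and MT1E, at 0.12 ± 0.09 (adjusted p = 0.413), were not called. Against 2 of 4 members called, the block called 14.4% of all genes, 7.83% of all genes being higher with MS275 and 6.55% lower. The median log2 change of the 4 members was 0.38 without and 0.41 with the block, beside 0.01 in both fits for all genes.

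The third pair of libraries stood apart from the rest: its TMM factors, the scaling factors of edgeR, were 0.887 and 0.881 against 0.998 to 1.06 in the others, and MT2A, MT1X and MT1E RNA was highest in it. Without that pair the blocked fit gave 0.59 for MT1X (adjusted p = 0.00415) and 0.32 for MT2A (adjusted p = 0.00430). Each of the other pairs could likewise be left out with both genes still called. In these blocked fits MT1F ranged from 0.20 without replicate 4 to 0.71 without replicate 2. MT1E ranged from 0.02 without replicate 3 to 0.24 without replicate 1, and neither gene was called in any of them.

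Genes around the cluster were compared with the same tests. The table held 19 further genes within 250 kb of a member, of which 8 were tested. Without the block 0 were called by edgeR (1 with an unadjusted p under 0.05) and 0 by DESeq2. With the block 2 of 8 were called, RP11-343H19.2 and BBS2, beside 14.4% of all genes. RP11-343H19.2, a transcript that overlaps MT1X on the same strand, rose by 0.66 ± 0.14 (adjusted p = 0.00904), and its reads cannot be told from those of MT1X in the overlap. BBS2, a component of a complex that carries cargo to cilia, rose by 0.49 ± 0.13 (adjusted p = 0.0279). The median log2 change of the 8 was 0.03 with the block.

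The rest of the family was examined with the same tests. The list held 15 further metallothionein genes, pseudogenes and the metallothionein-like gene MTL5. Of these 15, 7 were in the table, 3 of the 7 had 0 reads in all 8 libraries, and 2 were tested. Of the 2, 0 were called with or without the block (beside 14.4% and 0.00668% of all genes). MT1B, which sits between MT1M and MT1F, had between 36 and 125 reads per library and a log2 change of -0.26 ± 0.54 with the block (adjusted p = 0.799). Its mean in DMSO was 2.08 CPM, below MT1F at 4.20. Per kilobase of exon it was 5.28 ± 2.33 CPM per kb (SD, n = 4), above MT1F at 2.27 ± 0.98, with overlap. MT3, the form known from brain, and MT4, known from squamous epithelium, had 0 reads in every library.

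MTF1, the zinc-sensing regulator of the family, was higher with MS275 without overlap between treatments. It had 24.0, 22.9, 18.2 and 31.2 CPM in DMSO and 32.1, 34.0, 32.9 and 41.2 CPM in MS275. All 4 MS275 libraries lay above all 4 DMSO libraries, as 5.37% of the genes tested did in either direction. The log2 change was 0.54 ± 0.20 without the block (adjusted p = 0.597), and with the block MTF1 rose by 0.56 ± 0.12 (adjusted p = 0.00823). SLC30A1, the zinc exporter under MTF1, was higher in 4 of 4 pairs but was not called: its log2 change was 0.26 ± 0.10 with the block (adjusted p = 0.0931) and 0.27 ± 0.27 without (adjusted p = 0.929).

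Of the other zinc transporters, some rose and some fell. Among 25 genes of zinc transport and sensing, 19 were tested, and with the block 6 were called (31.6%, against 14.4% of all genes), 4 higher and 2 lower. Besides MTF1, SLC30A3, which loads zinc into vesicles, rose by 0.57 ± 0.13 (adjusted p = 0.0138). The zinc importers SLC39A8 and SLC39A14 rose by 0.47 ± 0.12 (adjusted p = 0.0244) and 0.28 ± 0.07 (adjusted p = 0.0236). SLC39A4, the importer of dietary zinc, fell by 0.44 ± 0.10 on the log2 scale (adjusted p = 0.0121). The median log2 change of the 19 genes was 0.03 with the block, beside 0.01 for all genes.

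**Figure D2:**
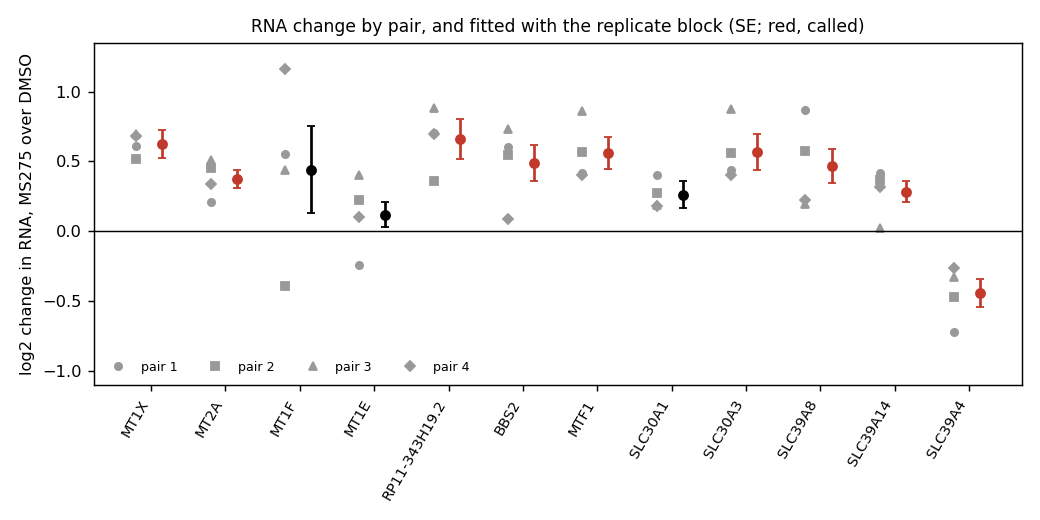
Log2 change in RNA with MS275 for the 4 tested members, the called neighbours and the named genes of zinc transport and sensing; grey symbols are the 4 same-numbered pairs and coloured points the edgeR estimate with the replicate block (bars, SE; red, adjusted p under 0.05; black, not called). MT1X lies between 0.51 and 0.70 in its 4 pairs, MT1F ranges from -0.39 to 1.16, and SLC39A4 is below 0 in each pair.

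Genes of other inputs to metallothionein expression were listed in the same way. Without the block, 0 of the 64 genes tested over all the lists were called by edgeR (6 with an unadjusted p under 0.05) and 0 by DESeq2. The following calls are with the block. Of 15 NRF2 targets, the genes of the oxidative stress response, 6 were called, beside 14.4% of all genes, 2 higher and 4 lower. KEAP1, the inhibitor of NRF2, fell by 0.80 ± 0.08 on the log2 scale (adjusted p = 8.69e-05), and SLC7A11, the cystine importer, fell by 0.45 ± 0.09 (adjusted p = 0.00626). TXNRD1, thioredoxin reductase, rose by 0.22 ± 0.06 (adjusted p = 0.0287), thioredoxin itself (TXN) fell by 0.20 ± 0.06 (adjusted p = 0.0443), and the exporter ABCC2 fell by 0.42 ± 0.11 (adjusted p = 0.0238). Of 9 glucocorticoid receptor targets 8 were tested and 1 was called (12.5%): FKBP5, a chaperone of that receptor, rose by 0.49 ± 0.07 (adjusted p = 0.00151). Of 11 copper genes 1 was called (9.09%), the copper exporter ATP7B, which rose by 0.61 ± 0.18 (adjusted p = 0.0430). Of 9 heat shock genes 2 were called (22.2%): the co-chaperone DNAJB1 rose by 0.40 ± 0.07 (adjusted p = 0.00227) and HSPH1 fell by 0.25 ± 0.06 (adjusted p = 0.0191).

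The 5 genes outside the family whose log2 CPM followed the mean of the 4 expressed members most closely over the 8 libraries were NEAT1 (Pearson's r = 0.982), PRADC1 (0.980), CAMK2N2 (0.979), RP11-579D7.4 (0.972) and ADORA1 (0.972), out of 14956 genes ranked. These libraries share the pairs and the third pair that stood apart. NEAT1, a long non-coding RNA of nuclear paraspeckles, had 90.7 CPM in DMSO replicate 3 and between 17.1 and 38.9 CPM in the other DMSO libraries. Over the same libraries r was -0.05 for MTF1.

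Markers of other cell types summed to far less than epithelial markers in HCT116 cells. The 9 epithelial markers summed to between 3460 and 5177 CPM in DMSO and between 4479 and 6043 CPM in MS275. Most of that was KRT8, KRT18 and KRT19, at means of 1777, 1017 and 1041 CPM in DMSO. KRT20 and VIL1 had means of 0.88 and 0.36 CPM in DMSO, and LGALS4 had 1 read in all. The 13 markers of stromal, muscle, endothelial and neural cells summed to between 14.1 and 20.5 CPM in DMSO and between 25.4 and 30.6 CPM in MS275, and the highest of them was COL1A1, at a mean of 7.0 and 13.4 CPM, with 4 of the 13 detected in every library. The 9 immune markers found summed to between 6.41 and 8.96 CPM in DMSO and between 4.98 and 11.4 CPM in MS275. Most of that was CD68, at a mean of 6.42 and 7.33 CPM, while PTPRC and CD3E had 8 and 7 reads in all and CD14 had 0. COL1A1 and CD68 were thus above MT1F, which had means of 4.20 and 5.43 CPM. The part of these shifts in the RNA results was not tested. In bulk samples such as these, fewer cells of a type and less RNA per cell cannot be told apart.

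In chromatin, the 9 HCT116 peaks lay at the 4 expressed members, with none within 2 kb of MT1M or MT1G. Of genes with a mean of at least 100 reads and no longer than the longest member, 79.5% of 493 had a peak within 2 kb; of those with 10 reads or fewer in all and of that length, 18.6% of 5809 had one. The table holds 1 set of peaks for all libraries of both marks, so a peak does not say in which library it was found. A peak covered the start of each of the 4 genes. The MT2A start peak, chr16:56603701-56615550, was 11850 bp wide and held the whole gene. The MT1E start peak, chr16:56624701-56626500, was 1800 bp wide, that of MT1F, chr16:56656501-56658600, was 2100 bp and that of MT1X, chr16:56681401-56683950, was 2550 bp. The other 5 peaks lay in the MT1E gene body, downstream of MT1E, upstream of MT1F (partly over MT1B), and upstream and downstream of MT1X, the last of these inside RP11-343H19.2.

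H3K18cr at the starts followed the order of RNA only in part. In DMSO the MT1E start peak had 93.0 ± 13.3 scaled reads per kb (SD, n = 3), above 98.1% of all peaks, and the MT2A peak, averaged over its greater width, had 68.9 ± 9.88. MT1X had 53.1 ± 8.79 and MT1F 47.2 ± 1.46. The ranges of MT2A and MT1X overlapped, as did those of MT1X and MT1F. The other 5 peaks had between 24.9 and 37.3. Over input, the log2 ratio (1 read added) was 2.50 at the MT1E start, 1.80 at MT2A, 1.59 at MT1X and 1.23 at MT1F, and between 0.23 and 1.19 at the other 5.

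H3K18cr fell at all 4 starts with MS275. At the MT1E start the scaled reads were 187, 175 and 141 in DMSO and 78.7, 77.9 and 92.6 in MS275, a log2 change of -1.01 ± 0.18 (SE; limma, adjusted p = 0.000149). At the MT2A start they were 906, 859 and 684 in DMSO and 485, 497 and 627 in MS275 (-0.61 ± 0.16, adjusted p = 0.00406). At the MT1X start they were 145, 152 and 109.8 in DMSO and 93.4, 100.6 and 72.9 in MS275 (-0.61 ± 0.19, adjusted p = 0.0166). At the MT1F start they were 102, 99.6 and 95.9 in DMSO and 64.1, 55.2 and 77.2 in MS275 (-0.61 ± 0.19, adjusted p = 0.0175). At each of these peaks all 3 MS275 libraries lay below all 3 DMSO libraries.

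Most gene starts shared this fall. Among all peaks 23.2% were called and 23.0% called lower (26.6% called with the replicate block), and among the 10899 peaks over a gene start 59.6% were, with a median log2 change of -0.57; in 66.1% of these, and 29.9% of all peaks, every MS275 library lay below every DMSO library. Against that, the MT2A, MT1X and MT1F starts lay near the median, and 5.25% of start peaks fell as much as the MT1E start or more. The input library was lower with MS275 by 0.42 on the log2 scale at the MT1E start peak, from 28.7 to 21.2 scaled reads, with a change of -0.16 at MT2A, -0.11 at MT1X and 0.12 at MT1F. With 1 input per treatment this had no replicate check, and its part in the result was not tested.

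The calls at the starts depended on scaling. The authors scaled each library to the largest one, and scaling by TMM over all peaks moved the median of all peaks from -0.20 to 0.04. All 4 starts stayed lower, by 0.77 at MT1E (adjusted p = 0.00247) and with log2 changes of -0.37 at MT2A (adjusted p = 0.0369), MT1F (0.152) and MT1X (0.158), so that 2 of 4 were called, where 32.6% of peaks over a gene start and 11.1% of all peaks were called lower with TMM. Lower peaks were 99.0% of all calls with the authors' scaling and 86.2% with TMM. The MT1F call was also lost without DMSO replicate 1, DMSO replicate 2, MS275 replicate 1 or MS275 replicate 2 (adjusted p between 0.0639 and 0.131), that of MT1X without DMSO replicate 1, DMSO replicate 2 or MS275 replicate 3 (between 0.0754 and 0.115) and that of MT2A without MS275 replicate 1 (0.0541). In these fits the log2 change was between -0.61 and -0.50 for MT1F, between -0.55 and -0.47 for MT1X and -0.54 for MT2A.

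None of the 5 peaks away from the starts was called for H3K18cr by limma (0 of 5, 1 with an unadjusted p under 0.05, beside 9.62% called of all peaks away from gene starts), or by edgeR on the recovered reads. DESeq2 gave an adjusted p for 1 of the 5 and did not call it. The MT1E gene body peak had 29.0, 28.7 and 26.3 scaled reads in DMSO and 18.0, 19.8 and 18.2 in MS275, without overlap (-0.58 ± 0.28, adjusted p = 0.153). The remaining 4 had log2 changes between 0.14 and 0.22, with overlap in each. Their median and that of the gene body peak together was 0.14, beside -0.09 for all 29127 peaks away from gene starts. With TMM scaling these medians were 0.38 and 0.15, with the gene body peak at -0.34 and the other 4 between 0.37 and 0.46, none called.

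**Figure D3:**
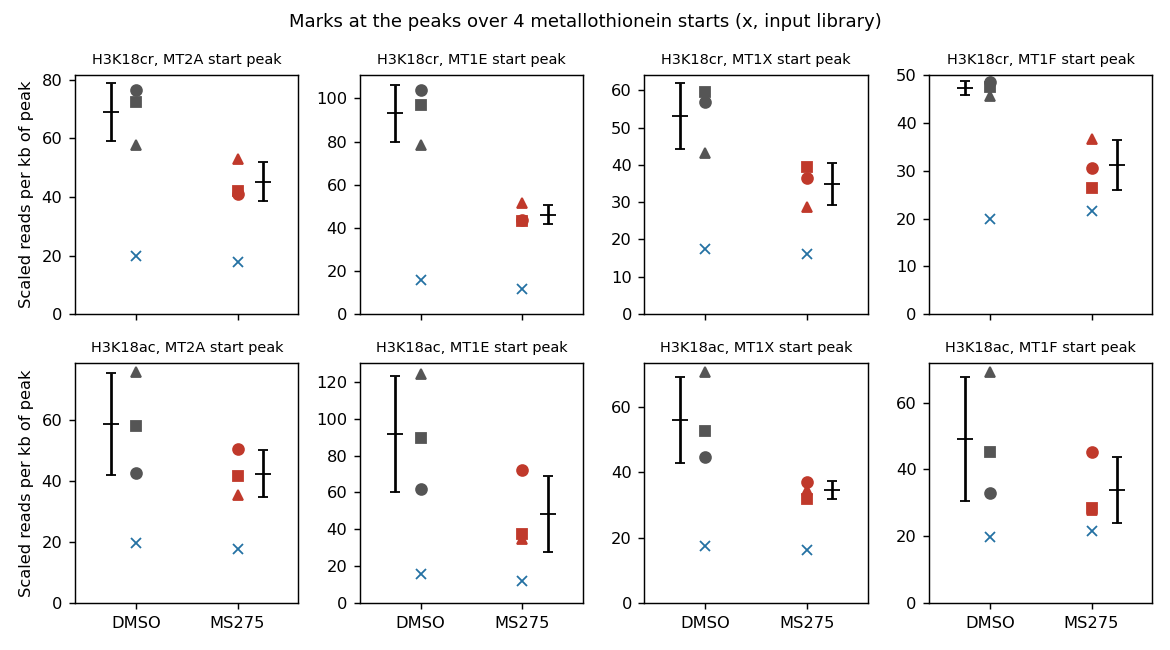
H3K18cr (top) and H3K18ac (bottom) at the peaks over the starts of 4 metallothionein genes, in scaled reads per kb of peak (linear axes from 0, 1 scale per panel). Symbols are libraries, black bars mean ± SD (n = 3) and blue crosses the input library of that treatment. For H3K18cr the 3 MS275 libraries lie below the 3 DMSO libraries at each start; for H3K18ac this holds at MT1X alone.

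H3K18ac moved in the same direction at the starts with more spread. At the MT1E start it had 111, 161 and 224 scaled reads in DMSO and 129.8, 67.6 and 62.9 in MS275, a log2 change of -0.95 ± 0.25 (adjusted p = 0.00295). At the MT1X start it had 114, 134 and 180.2 in DMSO and 94.8, 80.8 and 88.0 in MS275 (-0.68 ± 0.25, adjusted p = 0.0442). MT1E overlapped between treatments, since MS275 replicate 1 was above DMSO replicate 1, and MT1X did not.

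At the other starts H3K18ac was not called. The MT2A start peak had 503, 686 and 896 scaled reads in DMSO and 596, 493 and 417 in MS275 (-0.44 ± 0.25, adjusted p = 0.240). The MT1F start peak had 69.1, 95.02 and 145 in DMSO and 94.8, 59.4 and 58.7 in MS275 (-0.51 ± 0.25, adjusted p = 0.163). Both overlapped between treatments. Thus 2 of 4 starts were called lower, where 16.3% of all peaks and 46.2% of those over a gene start were, with a median log2 change of -0.63 over the latter, and 17.6% of start peaks fell as much in H3K18ac as the MT1E start or more. Every MS275 library lay below every DMSO library in 1 of the 4, in 53.0% of peaks over a gene start and in 23.1% of all peaks. With the replicate block 0 of 4 were called, MT1E at an adjusted p of 0.0832 and MT1X at 0.245, where 2.03% of all peaks were.

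These calls depended on single libraries. With the authors' scaling, the 4 H3K18ac start peaks were lowest in DMSO replicate 1 among the DMSO libraries, and without that library all 4 starts were called lower, MT2A at an adjusted p of 0.0292 and MT1F at 0.0213. The MT1E call was lost without MS275 replicate 2 (adjusted p = 0.105) or MS275 replicate 3 (0.128), and the MT1X call without DMSO replicate 2 (0.144), DMSO replicate 3 (0.211), MS275 replicate 2 (0.257) or MS275 replicate 3 (0.186). In these fits the log2 change was -0.81 and -0.76 for MT1E and between -0.71 and -0.50 for MT1X. MT1F was called without MS275 replicate 1 (0.0370). Without DMSO replicate 3 the log2 change was smaller, at -0.24 for MT2A (adjusted p = 0.611) and -0.23 for MT1F (adjusted p = 0.713). With TMM scaling the median of all peaks moved from -0.19 to 0.06. MT1E (-0.71, adjusted p = 0.00148) and MT1X (-0.43, adjusted p = 0.0377) were called, and MT2A (-0.20, adjusted p = 0.221) and MT1F (-0.26, adjusted p = 0.315) were not, where 47.4% of peaks over a gene start and 16.5% of all peaks were called lower. The share of lower peaks among the calls went from 98.4% to 78.6%, as lower calls went from 6534 to 6633 and higher calls from 106 to 1801. Away from the starts 0 of 5 peaks were called for H3K18ac by limma (0 with an unadjusted p under 0.05, beside 5.47% called of all peaks away from gene starts) or edgeR, with log2 changes between -0.47 and 0.30 in limma. DESeq2 gave an adjusted p for 2 of the 5 and called neither.

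The marks were compared directly by the interaction of mark and treatment. Of 40266 peaks 0 were called (0.0%; limma, 739 with an unadjusted p under 0.05), and 0 of the 9 metallothionein peaks had an unadjusted p under 0.05. The change in H3K18cr minus that in H3K18ac was -0.05 ± 0.34 (SE) at the MT1E start, -0.16 ± 0.29 at MT2A, -0.10 ± 0.33 at MT1F and 0.07 ± 0.31 at MT1X.

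**Figure D4:**
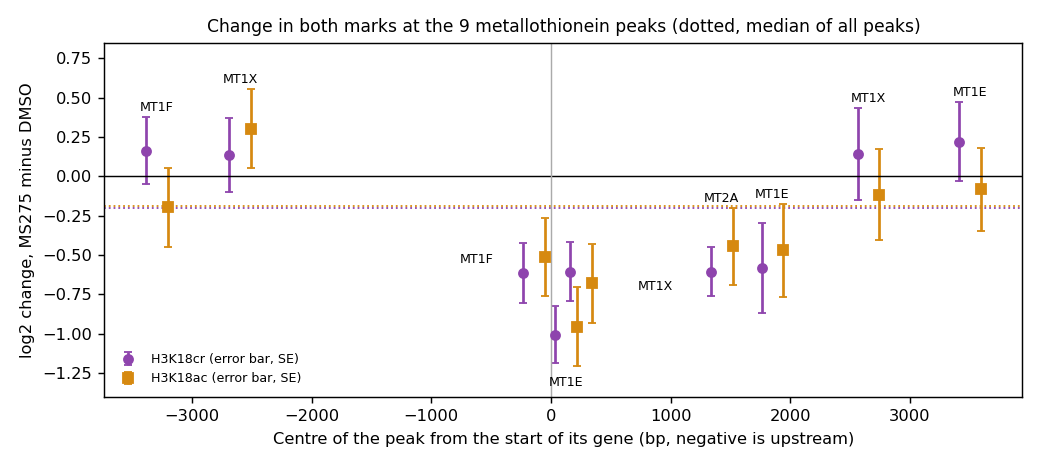
Log2 change with MS275 of H3K18cr (circles) and H3K18ac (squares) at the 9 metallothionein peaks against the distance of the peak's centre from the start of its gene (bp; pairs of points shifted sideways by 90 bp); bars are SE and dotted lines the median of all peaks for each mark. The peaks over a start, of which that of MT2A is so wide that its centre lies 1426.5 bp downstream, and the MT1E gene body peak lie lowest, and the 4 peaks farther out have H3K18cr changes between 0.14 and 0.22.

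RNA and marks can be set side by side for the 4 genes. MT1X, with the largest log2 RNA change, 0.63 with the block, had -0.61 for H3K18cr and -0.68 for H3K18ac at its start. Without replicate 2 the blocked RNA change was larger for MT1F, at 0.71 against 0.65 for MT1X. MT2A had 0.38 for RNA, -0.61 for H3K18cr and -0.44 for H3K18ac. MT1F had 0.44 for RNA, which was not called, -0.61 for H3K18cr and -0.51 for H3K18ac. MT1E had 0.12 for RNA, which was not called, and -1.01 for H3K18cr and -0.95 for H3K18ac, the largest falls of the 4 in scaled reads. That order changed over input: the log2 ratio to input changed most at the MT1F start, by -0.71 for H3K18cr and -0.65 for H3K18ac, against -0.59 and -0.51 at MT1E, -0.49 and -0.59 at MT1X and -0.45 and -0.31 at MT2A, with 1 input per treatment and no test. ChIP-seq values are shares of the reads of a library, so a lower share at a start does not give the amount of the mark there.

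In mouse colon epithelium Mt1 and Mt2 lie next to each other on chromosome 8 (GRCm38), Mt2 at chr8:94172618-94173567 and Mt1 at chr8:94179089-94180325, both on the + strand. Both were expressed in each mouse. Mt1 had 814, 1723 and 929 reads in libraries 1 to 3, or 99.7, 161 and 95.8 CPM (mean 119 ± 36.5, SD, n = 3). Mt2 had 317, 803 and 321 reads, or 38.8, 75.0 and 33.1 CPM (mean 49.0 ± 22.7). Library 2 was the highest for both genes, while the ratio of Mt1 to Mt2 reads stayed between 2.15 and 2.89.

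Per kilobase of exon Mt1 had 80.0, 129 and 76.9 CPM per kb in libraries 1 to 3 (mean 95.3 ± 29.3) and Mt2 had 66.0, 128 and 56.3 (mean 83.3 ± 38.6). Mt1 was the higher in 3 of 3 mice, by little in library 2, and the ranges of the genes overlapped. The summed exons of Mt1, 1246 bp, cover its whole annotated interval, while those of Mt2, 588 bp, cover only part of its own. The closeness of the 2 genes per kilobase therefore rests on unlike lengths. Mt1 was above 88.4% of the 16691 genes detected and Mt2 above 70.7% by CPM; per kilobase both rank higher, above 96.9% and 96.3% of the genes with a known exon length (89.6% of those detected). Mt3 had 248, 470 and 337 reads and a mean of 34.1 ± 6.47 CPM per kb, and Mt4 had 0, 3 and 0 reads.

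The colon libraries had the markers of their label. The 9 epithelial markers summed to 13280, 11945 and 11755 CPM in libraries 1 to 3. The 10 immune markers summed to 73.6, 70.2 and 84.5 CPM, with Cd14 the highest of them, and the 13 stromal, muscle, endothelial and neural markers to 64.0, 51.1 and 56.1 CPM, with Pdgfra at 0 in all.

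In colon chromatin H3K4me3 had a peak over each of the genes and H3K18cr over Mt2 alone. The Mt2 start peak had the same coordinates in both tables, chr8:94171951-94173900. There H3K18cr had 135 and 169 scaled reads against 48.0 and 56.5 in the inputs of the same number, a log2 ratio of 1.52 ± 0.06 (SD, n = 2; 1 read added), above 72.9% of H3K18cr peaks. H3K4me3 had 156, 243 and 314 scaled reads there against 43.0 in its 1 input, a log2 ratio of 2.38 ± 0.51 (SD, n = 3), above 71.8% of H3K4me3 peaks. Both values lay above the medians of all peaks, 1.31 for H3K18cr and 1.65 for H3K4me3.

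At Mt1 a peak over the start was listed for H3K4me3 alone. The H3K4me3 peak over its start, chr8:94178701-94180650, had 101, 126 and 195 scaled reads against 39.0 in the input, a log2 ratio of 1.77 ± 0.48, above 54.1% of peaks. The nearest H3K18cr peak, chr8:94181851-94184250, began 1526 bp beyond the end of the gene. It had 162 and 243 scaled reads against 58.0 and 90.1 in the inputs, a log2 ratio of 1.45 ± 0.03. An H3K4me3 peak, chr8:94182451-94183800, lay inside it, 2126 bp from the gene and so just beyond the 2 kb limit, with 62.1, 61.5 and 92.6 scaled reads against 24.0 in the input (log2 ratio 1.52 ± 0.33). The values of H3K18cr over the Mt1 start itself are not known, since the table gives reads only in peaks.

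**Figure D5:**
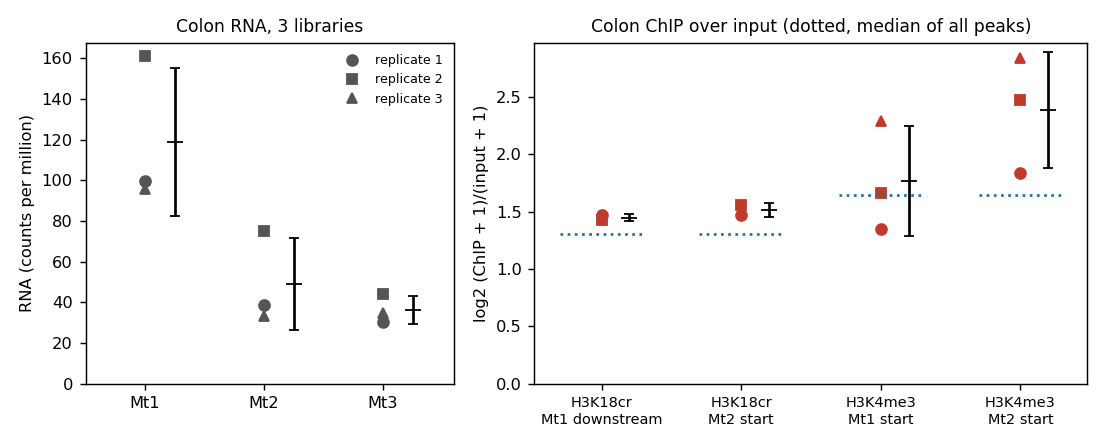
Left, RNA of Mt1, Mt2 and Mt3 in colon epithelium in CPM (linear axis from 0, symbols are 3 libraries and bars mean ± SD), and right, log2 ratio of ChIP to input, with 1 read added, at the 4 colon peaks of Mt1 and Mt2 (symbols are libraries, bars mean ± SD and dotted lines the median of all peaks of that mark). Library 2 is highest for all 3 genes, and the Mt2 start has the highest ratio of the 4 peaks, 2.38, for H3K4me3.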

How the data were processed

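RNA-seq of HCT116 cells and mouse colon epithelium and ChIP-seq of H3K18cr, H3K18ac and H3K4me3 were analysed from 5 deposited tables holding 33 libraries. The authors deposited raw counts of reads per gene for RNA. The trimming with Trim Galore 0.4.2 and mapping with HiSat2 2.0.5 are stated for mouse. The counting of uniquely mapped reads with SEQMONK 1.36.0 is stated without a species. The submitters' processing notes list TopHat2 2.0.12 and Bowtie2 2.2.5. Whether counting used strand is not given in the sources used here. The colon ChIP tables hold a signal, the authors' read count per peak times a factor of each library, and the HCT116 table holds the log2 of such counts, as deposited. Reads had been mapped with Bowtie2 to GRCm38 or GRCh38, duplicates removed and peaks called with MACS, 1 list per table. In each ChIP library 100% of values were whole multiples (within 0.1) of the value of 1 read, with 0.9 read in place of 0 in the HCT116 table.

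Counts on genes per library ranged from 35608533 to 53415604 in HCT116 and from 8166406 to 10707901 in colon. Reads in peaks ranged from 2236551 to 5730094 in HCT116 ChIP libraries, from 1374609 to 1550122 in their inputs and from 770954 to 3451663 in colon ChIP and input libraries. Ranges and limits for a count of 0 (3 counts) cover counting error only.

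RNA was tested with edgeR 4.0.16 (quasi-likelihood, TMM, filterByExpr), and marks with limma 3.58.1 (eBayes with trend) on the log2 values of peaks with at least 10 scaled reads in at least 3 libraries, in R 4.3.3. Adjusted p-values (Benjamini-Hochberg) are over all genes or peaks tested, and a call is an adjusted p under 0.05. CPM of HCT116 use TMM factors and those of colon the library total. DESeq2 1.42.0 was an alternative. The other alternatives were size factors by RLE, no filter, TMM scaling of peaks, edgeR on recovered reads, the replicate block, windows of 0 and 5 kb, pseudocounts of 0.5 and 5, and each library left out. Tested on simulated data with 200 changed features, the edgeR test of RNA recovered 200 among 14902 genes, with 10 false calls. With the replicate block it recovered 200, with 11 false calls, and DESeq2 recovered 200, with 24. The limma test of a mark recovered 200 among 39500 peaks, with 8 false calls. Recovery of changes as small as those of the metallothionein genes and peaks was not tested.

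Replicate numbers come from the sample titles, which do not say what they mark. Deviations of same-numbered RNA libraries from their group means correlated at 0.226, 0.151, 0.433 and 0.460, each above 0.1, so the blocked value is given where it changes a call. Differently numbered libraries correlated between -0.418 and 0.239, and DMSO replicate 2 correlated more with MS275 replicate 4 than with its own number.

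The members and lists were chosen with earlier results of these data known. Named genes are all members and their peaks; called genes within 250 kb; up to 5 called genes per list by p in either fit; MTF1 and SLC30A1; and the 5 genes most correlated with the members. Gene lengths are the summed exons of all GENCODE transcripts of a gene, and promoter sequences are from RefSeq (GRCh38.p14). Tables and plots were made with Python 3.11.15, pandas 2.3.3, numpy 2.4.6 and matplotlib 3.10.9.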

Additional observations from a re-analysis of the deposited data

Results flagged for a closer look

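The RNA of the 6 metallothionein genes in HCT116 cells was examined for single libraries far from the rest of their group, in 11 groups of 4 libraries; chance flags about 1 in 20 such groups. In 2 of them 1 library stood out, each time because the other 3 had 0 reads, which puts the gap to the nearest library at 1.0 of the group's range. These were MT1M in DMSO, with 13 reads in replicate 2, and MT1G in MS275, with 3 reads in replicate 3.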

How the results depend on the processing

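With the replicate block, the number of metallothionein genes called for RNA went from 0 to 2 with edgeR and to 2 with DESeq2, and the number called over the metal, redox, glucocorticoid and heat shock lists from 0 to 16. Over all genes 1 was called by edgeR without the block, 2151 with it, 161 by DESeq2 and 2610 by DESeq2 with it. With single libraries left out and no block, 0 members were called each time, and with a pair left out under the block 2 each time; the log2 change of MT1E ranged from -0.12 to 0.27.

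For H3K18cr the number of metallothionein peaks called went from 4 to 2 with TMM scaling, 2 with edgeR and 1 with DESeq2 on the recovered reads, and from 2 to 4 with libraries left out. For H3K18ac it went from 2 to 1 with DESeq2 and 0 with the block, and from 0 to 4 with libraries left out. Over all peaks, TMM scaling gave 5161 calls against 9303 for H3K18cr, and the block gave 814 against 6640 for H3K18ac and 10654 for H3K18cr. Same-numbered ChIP libraries correlated at 0.108, 0.0729 and 0.229 for H3K18cr and at -0.207, 0.0464 and -0.134 for H3K18ac, so the numbers were not read as pairs here, although the study's own test of these marks over gene starts was paired; the block changed no other call at the metallothionein peaks.

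The direction at some peaks away from the starts was not stable, while the MT1E gene body peak kept its direction for both marks and the peak upstream of MT1X for H3K18ac in all 11 alternatives. With libraries left out, H3K18cr ranged from -0.023 to 0.44 downstream of MT1E, -0.15 to 0.42 upstream of MT1F, -0.17 to 0.32 upstream of MT1X and -0.048 to 0.46 downstream of MT1X. H3K18ac ranged from -0.29 to 0.13 downstream of MT1E, -0.42 to 0.012 upstream of MT1F and -0.31 to 0.056 downstream of MT1X. With TMM scaling, edgeR and DESeq2 these 3 H3K18ac changes were above 0, at 0.17, 0.14 and 0.14, at 0.051, 0.060 and 0.047, and at 0.13, 0.089 and 0.098. The difference between the marks changed sign with libraries left out at the MT2A start (-0.36 to 0.053), the MT1E start (-0.30 to 0.28), the MT1E gene body (-0.33 to 0.10), the MT1F start (-0.38 to 0.15), upstream of MT1X (-0.48 to 0.011) and at the MT1X start (-0.11 to 0.22).

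In colon, the percentile per kilobase was 96.9 for Mt1 and 96.3 for Mt2. A pseudocount of 5 lowered the H3K18cr log2 ratio to 1.40 at the Mt1 downstream peak and 1.45 at the Mt2 start. Only 1 H3K18cr peak overlapped a gene, the Mt2 start peak, at 1.52 with 1 read added. The cause of the changes described above for HCT116 cells was not tested. Of 480 values recomputed under alternatives, 382 kept their direction and call or stayed within the replicate spread. The depth of 1 input per treatment in HCT116 and 2 or 3 libraries per mark limit the peaks with few reads.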

Other observations

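The shares of the members relative to each other were set side by side after their values were seen, so they are given as a description with no test. MT1E reads were 50.8 ± 4.93% of MT2A reads in DMSO (SD, n = 4, range 46.8% to 58.0%) and 42.4 ± 0.86% in MS275 (41.4% to 43.5%), so that all 4 MS275 libraries lay below all 4 DMSO libraries. MT1X reads were 6.31 ± 0.65% of MT2A reads in DMSO (5.38% to 6.82%) and 7.5 ± 0.68% in MS275 (6.84% to 8.40%), again without overlap. MT1F reads were 1.01 ± 0.48% and 0.998 ± 0.22% of MT2A reads, with overlap. As a share of MT2A reads, 12.5% of all other genes tested did not overlap between treatments. These ratios do not depend on the scaling of a library. Reads that fit several of these similar genes may enter them, and their part was not tested.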
